A study of Arabidopsis thaliana with 16 samples.

Results

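Petals of the Arabidopsis thaliana mutant co-10, which lacks a working CONSTANS (CO) gene, were compared with petals of the wild type Col-0, with both sampled times of day pooled. The comparison used the 4 co-10 and the 4 Col-0 petal libraries out of 16 libraries in the series, all of them members by genotype, tissue and time alone. Each genotype had 2 biological replicates at ZT4 and 2 at ZT16, where ZT counts hours from lights on in long days of 16 h light and 8 h dark, so that ZT16 falls at lights off. All plants grew on compost at 22°C by day and 18°C by night, and co-10 is described by the submitters as a null mutant. The remaining libraries were petals and seedlings of 35S:CO, in which the viral 35S promoter drives CO throughout the plant, and seedlings of Col-0. The labels do not say how many flowers or plants went into a library, nor at what stage the petals were taken, so p-values measure the spread between these libraries.

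CO is a B-box transcription factor that promotes flowering in long days, when its protein is stabilised by light late in the day and switches on the florigen gene FT in leaf veins. Petals are short-lived organs: after pollination they stop growing, export sugars and nitrogen, and are shed, a course in which jasmonate and ethylene take part. The comparison asks which transcripts differ in petals when CO is missing.

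Transcript levels were given as FPKM, fragments scaled to transcript length and library size, and differences are co-10 minus Col-0 of log2(FPKM + 1). Of 32833 loci, 17357 reached 1 FPKM in at least 2 of the 8 libraries and were tested by limma with time as a block. Calls are at 0.05 on p-values adjusted by the Benjamini-Hochberg method over all loci tested. Between co-10 and Col-0 petals 1 locus was called, AT1G64795, which was lower in co-10. No locus was called higher. The called share was 0.00576% of the loci tested. At an unadjusted p under 0.05 there were 493 loci, of which 204 stood higher in co-10 and 289 lower, where evenly spread p-values would give 868. The median difference over all loci was 0.00 on the log2 scale, and for 8554 loci, or 49.28% of those tested, the 95% confidence interval of the difference lay within 1 log2 unit of 0. For the other loci a difference of 1 log2 unit or more was within the interval. On this scale 1 unit is a 2-fold change of FPKM + 1. At low levels the FPKM themselves can differ by more than 2-fold within it. Small responses of single genes were not detectable in these 8 libraries. Larger differences could also go uncalled, as for the gene TGG2 at 1.56 on the log2 scale (adjusted p = 0.978 by limma).

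**Figure D1:**
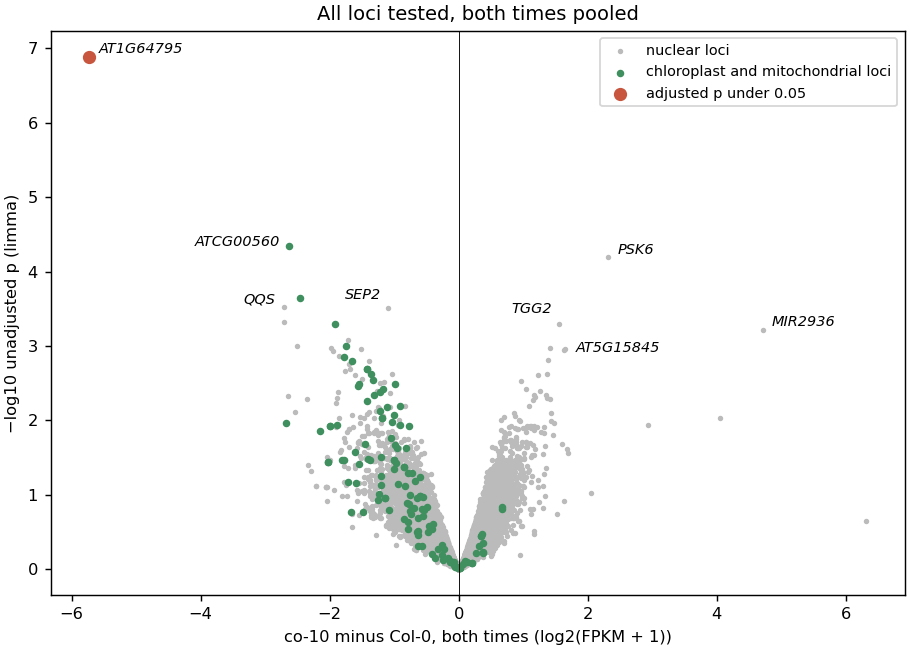
Difference between co-10 and Col-0 petals (x axis, log2(FPKM + 1), both times pooled) against the unadjusted limma p (y axis, −log10) for each of the 17357 loci tested. AT1G64795, at -5.72, is the single locus past the adjusted threshold; the loci encoded in chloroplasts and mitochondria lie mostly left of 0.

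Sequences of the loci on which the results turn are printed here from the TAIR10.1 reference, whose nuclear positions are used throughout. AT1G64795 is a short annotated gene of 2 exons at chr1:24082579-24082848 on the plus strand, with a coding sequence of 201 bases for an uncharacterized protein. The capitals mark its second exon.
AT1G64795: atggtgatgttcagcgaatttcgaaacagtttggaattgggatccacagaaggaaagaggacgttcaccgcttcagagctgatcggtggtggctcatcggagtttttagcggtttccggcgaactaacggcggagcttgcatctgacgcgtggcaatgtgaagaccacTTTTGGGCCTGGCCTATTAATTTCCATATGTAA
PSK6 (AT4G37720), at chr4:17718953-17719321 on the minus strand, is annotated as a precursor of phytosulfokine, a small secreted peptide that promotes cell growth. It is shown because it was the locus listed at 0 in every Col-0 petal library and at 1 FPKM or more in every co-10 one. Its coding sequence has 264 bases, and the capitals mark the 15 bases at the place of the peptide.
PSK6: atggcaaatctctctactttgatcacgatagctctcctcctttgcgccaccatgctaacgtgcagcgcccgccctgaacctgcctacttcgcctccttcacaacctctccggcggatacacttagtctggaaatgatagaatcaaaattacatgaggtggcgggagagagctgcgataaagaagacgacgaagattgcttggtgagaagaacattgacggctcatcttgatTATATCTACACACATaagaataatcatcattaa
AT5G15845 is a long non-coding RNA at chr5:5173081-5178291 on the plus strand. It starts at the start of CO (AT5G15840, chr5:5170162-5173085, minus strand) and runs away from it, across the neighbouring gene COL1 on the opposite strand. Its first 150 bases, chr5:5173081-5173230, lie just upstream of CO apart from the 5 bases in capitals, which are also the start of the CO transcript read on the other strand.
AT5G15845: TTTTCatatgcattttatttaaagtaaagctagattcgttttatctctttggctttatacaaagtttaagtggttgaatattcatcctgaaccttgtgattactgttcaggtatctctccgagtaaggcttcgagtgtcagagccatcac
The mature miR2936, at chr4:1046948-1046969 on the minus strand, is printed in DNA letters with its seed, bases 2 to 8, in capitals. Its precursor lies wholly inside SAG21 on the same strand.
miR2936: cTTGAGAGagagaacacagacg

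CO itself was near the limit of detection in petals of both genotypes. In Col-0 it stood at 0.108 and 0.703 FPKM at ZT4 and at 0.0376 and 0.191 FPKM at ZT16. In co-10 the values were 0.0256 and 0.260 FPKM at ZT4 and 0.0622 and 0.163 FPKM at ZT16, so the genotypes overlapped at both times. The difference was -0.14 on the log2 scale (exact permutation test within times, two-sided, p = 0.556 with n = 4 per genotype; 36 arrangements allow no p below 0.0556). Without replicate 2 of Col-0 at ZT4 it was 0.02, and the CO level therefore gives no check of the co-10 label. Seedlings of Col-0 at ZT16 had 1.91 and 2.098 FPKM, and 35S:CO petals 413.7 to 625.4 FPKM. FT (AT1G65480), the best known target of CO, was also low in both genotypes: 2.56, 0, 1.68 and 1.36 FPKM in the Col-0 libraries and 4.49, 0.394, 0.794 and 1.48 FPKM in the co-10 ones, a difference of 0.15 ± 0.53 on the log2 scale (± SE, adjusted p = 0.999 by limma). The class B floral genes AP3 and PI, which specify petals and stamens, were high in every library: AP3 stood at 275 to 696 FPKM in Col-0 and 279 to 524 FPKM in co-10, and PI at 456 to 1148 and 474 to 1064 FPKM. The class E gene SEP3 stood at 83.9 to 334 and 80.8 to 261 FPKM. These genes do not separate petal from stamen material, and the pollen gene VGD1 stood at 429 to 2833 FPKM in the same libraries.

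The 8 libraries were unequal. Loci listed at 0 numbered 11490 to 18240, the most in replicate 2 of co-10 at ZT4, which also stood apart on the second axis of a principal component analysis (score -94.34 against -20.21 to 51.21 for the other libraries, 17.27% of the variance). The main axis, with 53.85%, placed ZT4 on one side and ZT16 on the other. Between 3.82% and 38.8% of summed FPKM lay in ribosomal RNA loci. Sequencing depth is unknown. A rough estimate was made from the spacing of low values, of which 14.9% to 42.8% lay on whole reads, within 0.02 of a read. It put the shallowest library at replicate 2 of co-10 at ZT4 and the deepest at replicate 1 of co-10 at ZT16. Replicate 1 of co-10 at ZT4 was the next shallowest, so at ZT4 both co-10 libraries lay below both Col-0 libraries. Summed FPKM of 17 pollen and anther markers was 1196 and 1902 in Col-0 against 2910 and 3389 in co-10 at ZT4, and 2769 and 4244 against 3395 and 5835 at ZT16. Pollen genes such as VGD1, AGP6 and AGP11 made up that sum, while MS2, A9, AMS, ATA1, ATA7, MYB99, LAP5 and BGLU20 were at 0 in every library of the comparison. Summed markers of green tissue were 3307 and 4518 FPKM in Col-0 and 3049 and 4453 in co-10 at ZT4, and 1082 and 1577 against 669 and 1894 at ZT16. Summed carpel and ovule markers were 24.1 to 37.2 FPKM in Col-0 and 28.1 to 37.8 in co-10. In bulk petals, fewer cells of a type and less RNA per cell cannot be told apart. The part of these library differences in the results was not tested.

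**Figure D2:**
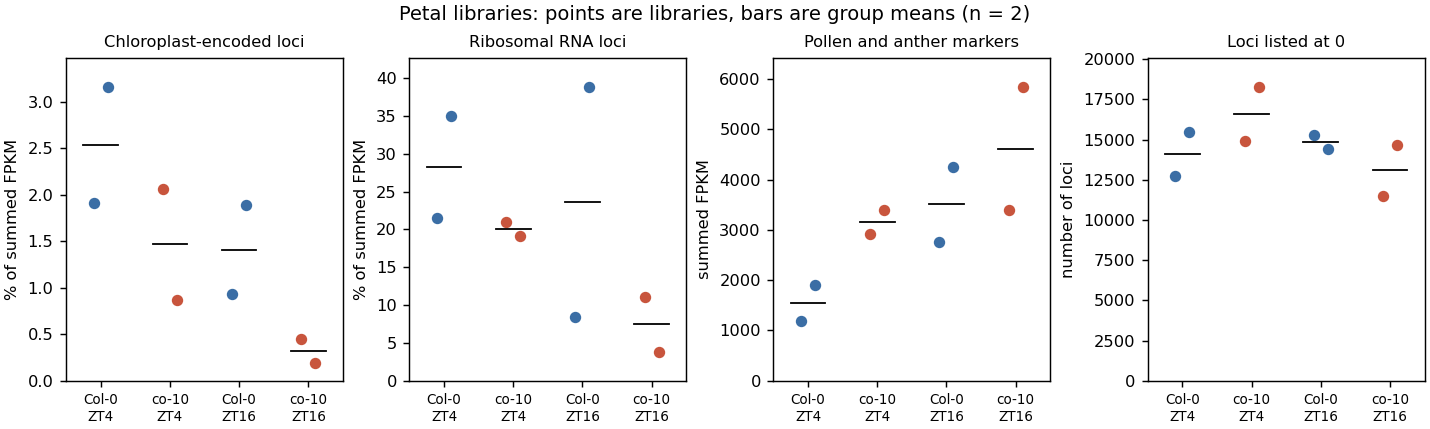
Share of summed FPKM from chloroplast-encoded and from ribosomal RNA loci, summed FPKM of pollen and anther markers, and the number of loci listed at 0, in each Col-0 (blue) and co-10 (red) petal library. The lowest chloroplast shares, 0.454% and 0.193%, were those of co-10 at ZT16, and pollen markers were higher in both co-10 libraries than in both Col-0 libraries at ZT4.

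AT1G64795 fell in co-10 at both times. Its level was 122 and 65.5 FPKM in Col-0 at ZT4 and 70.6 and 39.8 FPKM at ZT16. In co-10 it was listed at 0 in both ZT4 libraries and in 1 of the ZT16 libraries, and stood at 2.07 FPKM in the other. No co-10 library came near a Col-0 one. It fell by 5.72 ± 0.46 on the log2 scale (± SE, adjusted p = 0.00226 by limma, lower in 4 of 4 co-10 libraries), and was also called at ZT4 alone (-6.50, adjusted p = 0.0071) and at ZT16 alone (-4.95, adjusted p = 0.0397). The call over both times held when any 1 library was left out, with adjusted p from 2.97e-04 to 0.0318 and without the deviating co-10 library at 0.0118. The call at ZT4 alone was lost without either Col-0 ZT4 library (adjusted p = 0.241 and 0.125 by limma). The call at ZT16 alone was lost without any 1 of the 4 Col-0 libraries or without replicate 2 of co-10 at ZT16 (adjusted p from 0.136 to 0.456 by limma). The call over both times was lost with a pseudocount of 0.1 FPKM (adjusted p = 0.171 by limma). It was also lost in a fit that held the 35S:CO petals too, with a genotype term at each time (adjusted p = 0.244 by limma). In those petals the level followed the replicate, with 52.8 and 26.2 FPKM in replicate 1 at ZT4 and ZT16 and 0.609 and 0 FPKM in replicate 2, and in the seedling libraries of both genotypes it was 0 to 1.45 FPKM. The level thus varied between libraries of 1 genotype about as far as between co-10 and Col-0, and a difference through CO and another difference between the plants or libraries cannot be told apart. The gene lies inside ILA (AT1G64790) on the opposite strand, and whether the counting used strand is not given in the sources used here. ILA stood at 0.773 to 4.06 FPKM in Col-0 and 0.569 to 5.76 FPKM in co-10, a difference of -0.02 ± 0.56. At 201 bases the transcript is short, and FPKM of short loci are sensitive to how fragments are assigned.

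**Figure D3:**
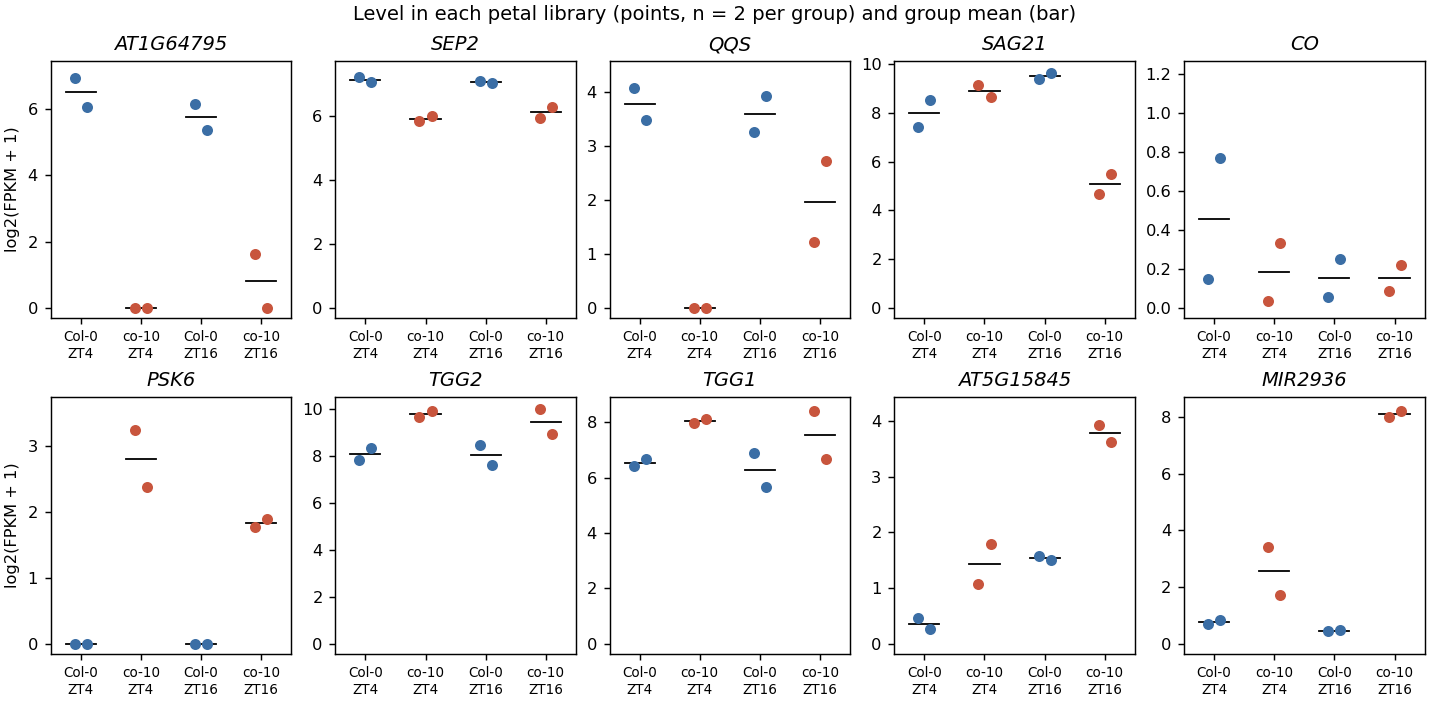
Level of CO and of 9 other loci in each Col-0 (blue) and co-10 (red) petal library, as log2(FPKM + 1) on a separate y axis per gene, with the mean of the 2 replicates as a bar. AT1G64795, SEP2 and QQS do not overlap between genotypes within either time, nor do PSK6, TGG2, AT5G15845 and MIR2936 in the other direction, while CO overlaps at both times.

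Apart from AT1G64795, 8 loci higher and 7 loci lower in co-10 had the smallest p among those whose genotypes did not overlap at either time and whose mean log2 value was at least 1; none of these 15 passed the adjusted test. Non-overlap in the same direction at both times was found for 566 loci, 3.26% of those tested, with 332 higher (1.91%) and 234 lower (1.35%). The values below are therefore descriptions of the leading loci.

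PSK6 was at 0 in all 4 Col-0 libraries. In co-10 it stood at 8.43 and 4.19 FPKM at ZT4 and 2.42 and 2.69 FPKM at ZT16. It was the single locus with this pattern, no locus showed the reverse, and it was at 0 to 0.572 FPKM in 35S:CO petals and at 0 in seedlings. The difference of 2.32 ± 0.36 missed the threshold (adjusted p = 0.371); it depends on the pseudocount, since Col-0 was at 0. In the fit that also held the 35S:CO petals PSK6 was called (adjusted p = 0.0419 by limma). So were MIR2936 and AT3G28820, higher in co-10, and LpxC3, LpxC4, ATCG00020 and ATCG00560, lower (adjusted p from 0.0054 to 0.0435 by limma). That fit also differed from the main one in its model, with a genotype term at each time, averaged over the times. Some of its calls rested on a single time. AT3G28820 was listed at 0 in both genotypes at ZT4, and LpxC4 overlapped between genotypes at ZT16. The other phytosulfokine precursors with a tested level, picked for mention after PSK6 was seen, were PSK2 at -0.15, PSK3 at -0.38, PSK4 at -0.50 and PSK5 at -0.42.

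The myrosinases TGG1 and TGG2 split glucosinolates, the mustard oil precursors, when tissue is wounded. TGG2 stood at 231, 331, 353 and 198 FPKM in the Col-0 libraries and at 809, 981, 1041 and 490 FPKM in the co-10 ones, and every co-10 library was above every Col-0 library. The difference was 1.56 ± 0.31 (adjusted p = 0.978). TGG1 had a difference of 1.37 ± 0.39 (adjusted p = 0.999), from 83.7, 100.1, 118 and 50.1 FPKM in Col-0 to 249, 274, 337 and 99.9 FPKM in co-10, with overlap at ZT16. In 35S:CO petals TGG2 stood at 54.4 to 88.4 FPKM and TGG1 at 21.1 to 33.4 FPKM, below every library of either other genotype; these libraries are set beside the same Col-0 controls and were not compared further.

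P5CS1 and RAB18 were among the leading higher loci. P5CS1, which makes the osmolyte proline, stood at 43.2, 30.9, 11.4 and 30.2 FPKM in Col-0 and 92.8, 78.9, 75.4 and 47.4 FPKM in co-10, a difference of 1.41 ± 0.32 (adjusted p = 0.999). RAB18, a dehydrin induced by abscisic acid, went from 8.66, 3.95, 7.39 and 4.62 FPKM to 23.8, 16.6, 9.51 and 20.7 FPKM, or 1.37 ± 0.34 (adjusted p = 0.999). Both were higher in 4 of 4 co-10 libraries. The dormancy and auxin associated gene AT5G44300 differed by 1.22 ± 0.31 and AT1G10530, a gene of unknown function here, by 1.63 ± 0.37. In 35S:CO petals AT5G44300 stood at 10.1 to 21.4 FPKM, also above every Col-0 library (2.15 to 4.62 FPKM). In the same petals P5CS1 stood at 11.2 to 16.3 FPKM, RAB18 at 3.27 to 7.31 FPKM and AT1G10530 at 0 to 1.96 FPKM.

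AT5G15845, the long non-coding RNA that starts opposite CO, stood at 0.385 and 0.197 FPKM in Col-0 at ZT4 and 1.98 and 1.85 FPKM at ZT16. In co-10 it stood at 1.103 and 2.47 FPKM at ZT4 and 14.2 and 11.3 FPKM at ZT16, so that both genotypes were higher at ZT16 and co-10 was above Col-0 at each time. The difference was 1.65 ± 0.37 (adjusted p = 0.999), 1.07 at ZT4 and 2.23 at ZT16. In 35S:CO petals it was 0.395 to 1.00 FPKM. Of the 20 loci nearest to CO, 10 on each side, 11 were tested, limma called 0, and the median difference was 0.03. At an unadjusted p under 0.05 by limma there were 2, both higher in co-10, against 493 of all 17357 loci tested. Among them AT5G15870, a glycosyl hydrolase gene, had 3.35 to 6.20 FPKM in Col-0 and 6.77 to 10.4 FPKM in co-10 (0.93 ± 0.30, unadjusted p = 0.00995 by limma, adjusted p = 0.999). COL1, over which the non-coding RNA runs on the other strand, stood at 36.8 and 37.8 FPKM in Col-0 and 43.6 and 45.4 FPKM in co-10 at ZT4. At ZT16 it stood at 5.20 to 8.79 FPKM, and the difference was 0.11 ± 0.24. If the counting did not use strand, reads of the pair cannot be told apart. The non-coding RNA also overlaps PCME (AT5G15860, 0.03 ± 0.30) on the other strand and AT5G15853 (-0.53 ± 0.46) on the same strand. Fragments from the stretch shared with AT5G15853 can be assigned to either, even where strand is used. How the co-10 lesion lies in this stretch is not given in the sources used here.

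Among the lower loci, SEP2 had even levels within each genotype. It is 1 of 4 SEPALLATA genes, which act with AP3 and PI to make petals. It stood at 146, 131, 136 and 130 FPKM in Col-0 and at 56.1, 62.1, 60.0 and 76.2 FPKM in co-10, so that the highest co-10 library lay far below the lowest Col-0 one. The difference was -1.09 ± 0.21 (95% interval -1.54 to -0.63, adjusted p = 0.897). In 35S:CO petals SEP2 was 91.0 to 205 FPKM. For other genes of floral organ identity, SEP1 differed by -0.10 ± 0.23, SEP3 by 0.01 ± 0.24, AP3 by -0.10 ± 0.25 and PI by -0.01 ± 0.25; whether SEP2 differs from them in response was not tested.

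QQS, an Arabidopsis orphan gene that influences the balance of starch and protein, stood at 15.8, 10.2, 8.58 and 14.2 FPKM in Col-0. In co-10 it was listed at 0 in both ZT4 libraries and stood at 1.32 and 5.57 FPKM at ZT16, a difference of -2.70 ± 0.51 (adjusted p = 0.897 by limma). In 35S:CO petals QQS stood at 0 and 28.1 FPKM at ZT4 and at 9.60 and 22.7 FPKM at ZT16. Its level thus spread within that genotype from 0 to above every Col-0 library. The Yippee family gene AT4G27740 differed by -1.71 ± 0.37 and the 94-base non-coding RNA AT4G06250 by -2.71 ± 0.54. The remaining leading lower loci were organelle-encoded. ATCG00560 went from 4.93 to 13.1 FPKM in Col-0 to 0 to 0.767 FPKM in co-10 (-2.63 ± 0.39, adjusted p = 0.371), ATCG00570 differed by -2.46 ± 0.45 and the mitochondrial ATMG00160 by -1.91 ± 0.39.

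Organelle transcripts as a class lay below 0, a class picked after these leading loci were seen. Of 82 chloroplast-encoded loci tested, 77 were lower in co-10, with a median difference of -1.01, -0.77 at ZT4 and -1.17 at ZT16; limma called 0, and 34 were lower and 0 higher at an unadjusted p under 0.05. Of 48 mitochondrial loci, 36 were lower, with a median of -0.55. The chloroplast share of summed FPKM was 1.91% and 3.16% in Col-0 at ZT4 against 2.07% and 0.864% in co-10, and 0.928% and 1.89% against 0.454% and 0.193% at ZT16. The share of ribosomal RNA loci was 21.6% and 35.0% against 20.9% and 19.1% at ZT4, and 8.37% and 38.8% against 11.1% and 3.82% at ZT16. Small nucleolar RNAs were lower too, 76 of 99, with a median of -0.48. So were loci with a longest transcript under 300 bases, 202 of 281, with a median of -0.45. That class includes small nucleolar RNAs of such length, so the counts are not separate. Organelle and small nucleolar RNAs are mostly without the long poly(A) tail that mRNA libraries select for, and the part of library making in these values was not tested. Nuclear genes for photosynthesis are given with the lists.

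At single times a few more loci were called, named here after their values were seen. At ZT4 limma called 4 loci, 0.023% of those tested, all lower in co-10. At an unadjusted p under 0.05 by limma there were 910, of which 648 stood lower in co-10 and 262 higher. The co-10 libraries of ZT4 had the lowest depth estimates, and the part of depth in these values was not tested. Besides AT1G64795 the called loci were the 82-base small nucleolar RNA AT1G74456, LpxC3 and LpxC4. AT1G74456 stood at 26.8 and 29.0 FPKM in Col-0 and at 0 and 0 in co-10 (adjusted p = 0.0071 by limma). LpxC3 and LpxC4 (adjusted p = 0.0498 each by limma) are enzymes of a lipid A type pathway. LpxC4 stood at 8.86 and 7.69 FPKM in Col-0 and was listed at 0 in both co-10 libraries at ZT4, while at ZT16 it stood at 27.5 and 21.1 FPKM against 23.7 and 27.7. LpxC1, LpxC3, LpxC4 and LpxC5 of this family had nearly the same value in every library, so that reads may be divided among them and they are described as 1 observation. The number at ZT4 rested on single libraries: without either Col-0 ZT4 library it was 0, and without replicate 1 of co-10 it was 381, of which 376 were lower, when replicate 2 stood alone for co-10.

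At ZT16 limma called 4 loci, also 0.023%, with 2 higher (0.0115%) and 2 lower (0.0115%). At an unadjusted p under 0.05 by limma there were 276, of which 144 stood higher in co-10 and 132 lower. AT3G28820, which encodes a protein of unknown function, was listed at 0 in 3 of the 4 Col-0 libraries and at 0.370 FPKM in the other, and at 0 in co-10 at ZT4. In co-10 at ZT16 it stood at 58.1 and 77.0 FPKM, a rise of 5.86 at that time (adjusted p = 0.0027), and in 35S:CO petals at 15.2 to 41.1 FPKM at both times. MIR2936 and SAG21 were called in opposite directions at ZT16. SAG21, a late embryogenesis abundant protein gene induced in ageing leaves, stood at 675 and 791 FPKM in Col-0 and 24.7 and 44.0 FPKM in co-10 (-4.43, adjusted p = 0.0191). The MIR2936 precursor stood at 0.377 and 0.395 FPKM in Col-0 and 258 and 293 FPKM in co-10 (7.64, adjusted p = 0.00162). At ZT4 SAG21 stood at 171 and 369 FPKM in Col-0 and 570 and 404 FPKM in co-10, and MIR2936 at 0.636 and 0.792 against 9.57 and 2.31 FPKM. As the precursor of 180 bases lies within SAG21 on the same strand, fragments from there can be assigned to either, and the values of the pair cannot be separated. MT1A, which overlaps AT1G07590 on the same strand, jumped between replicates, with 0.509 and 9673 FPKM in the 2 Col-0 libraries of ZT4. Without replicate 2 of co-10 at ZT16 no locus was called at that time, and without replicate 2 of Col-0 at ZT16 the count was 1. No locus was called by limma for a difference of the co-10 effect between the times, with 492 at an unadjusted p under 0.05. The smallest adjusted p, 0.106, was shared by SAG21, MIR2936, AT3G28820 and AT1G74456.

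The 22 gene lists held 377 distinct genes, of which 328 were tested. None was called over both times by limma, against 0.00576% of all loci, and 5 were higher and 3 lower at an unadjusted p under 0.05. In co-10 161 lay above 0 and 167 below, and the median was 0.00. Genotypes did not overlap at either time, in the same direction at both, for 6 of them, 1.83%, below the 3.26% of all loci. For 170 the 95% interval lay within 1 log2 unit of 0, and in 9 the difference itself exceeded 1 log2 unit. Medians below are set against 0.00 for all loci over both times, -0.06 at ZT4 and 0.08 at ZT16.

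**Figure D4:**
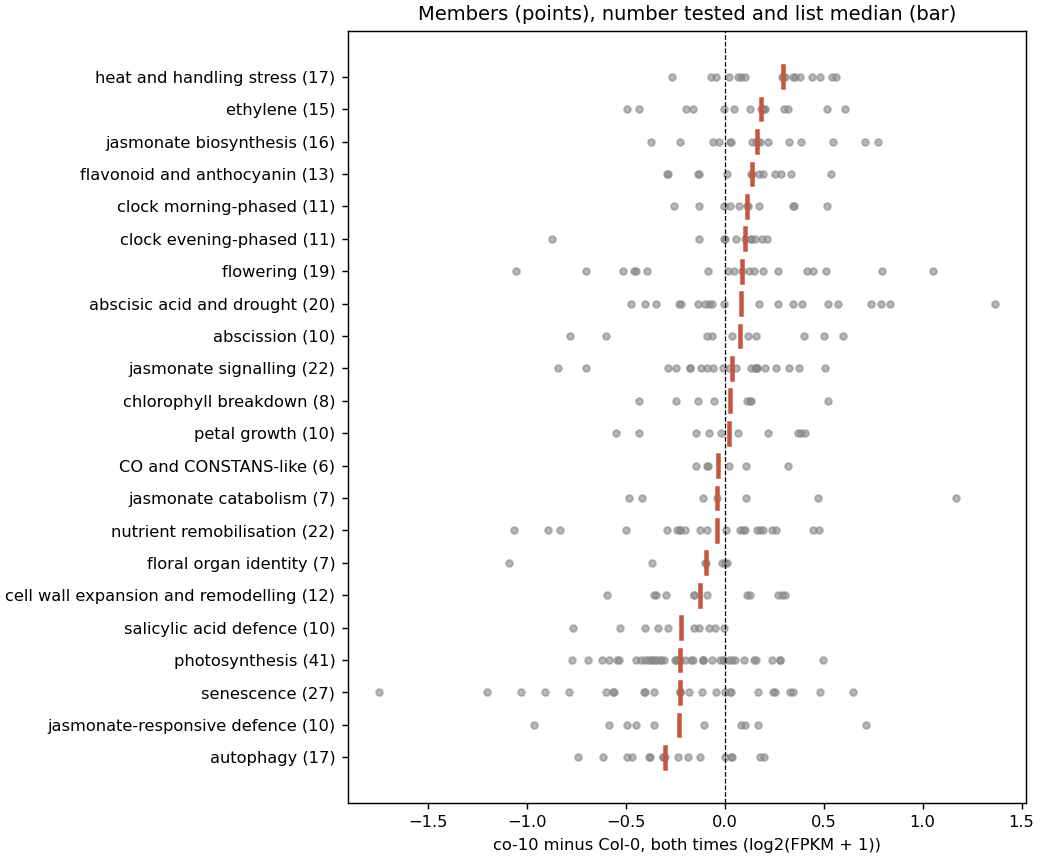
Difference between co-10 and Col-0 petals (x axis, log2(FPKM + 1), both times pooled) for each tested member of the 22 lists, with list medians as bars and the median of all loci as a dashed line. List medians lie between -0.30 for autophagy and 0.29 for heat and handling stress, and no member was called over both times.

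Jasmonate is made from chloroplast lipid by lipoxygenases, AOS, AOC and OPR3, and read through the receptor COI1, the JAZ repressors and MYC2. Of 16 tested biosynthesis genes 12 lay above 0 and 4 below, with a median of 0.16 and 0 called. JMT, which methylates jasmonate, stood at 11.8, 18.8, 5.69 and 7.42 FPKM in Col-0 and 34.7, 41.2, 5.38 and 11.6 FPKM in co-10, higher at ZT4 and overlapping at ZT16 (0.77 ± 0.33, adjusted p = 0.999). OPCL1, which activates the precursor for chain shortening, differed by 0.71 ± 0.32. Core enzymes were near 0, with AOS at -0.06 and OPR3 at 0.03. Among 7 catabolic genes, with a median of -0.04, CYP94B3, which inactivates the hormone conjugate by hydroxylation, stood at 0.489, 1.40, 0.374 and 0.361 FPKM in Col-0 and 4.72, 2.29, 3.50 and 1.02 FPKM in co-10, without overlap (1.17 ± 0.39, adjusted p = 0.999), while the sulfotransferase gene ST2A differed by -0.48 ± 0.34. In signalling 12 of 22 genes lay above 0, with a median of 0.04, and 16 had an interval within 1 log2 unit; MYC2 differed by 0.38 ± 0.24, COI1 by 0.16, the repressor JAZ5 by 0.51 ± 0.37 and JAZ7 by -0.70 ± 0.56. JAZ8, also a repressor, had the largest difference of the list at -0.84 ± 0.44, at levels of 0 to 2.73 FPKM in Col-0 and 0 to 0.561 FPKM in co-10. Of 10 responsive defence genes 6 lay below 0, with a median of -0.23. There the thionin THI2.1 spread from 0 to 227 FPKM within co-10 at ZT4 alone (-0.96 ± 1.31), and CORI3 differed by 0.71 ± 0.48.

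Of 27 senescence genes 18 lay below 0 and 9 above, with a median of -0.23, 0.04 at ZT4 and -0.34 at ZT16; none was called over both times, and SAG21 was at ZT16. WRKY70, a transcription factor that restrains leaf senescence, stood at 1.33, 11.0, 30.6 and 33.9 FPKM in Col-0 and 5.94, 6.98, 4.14 and 2.86 FPKM in co-10, so that the co-10 values lay below Col-0 at ZT16 and between the Col-0 values at ZT4 (-1.20 ± 0.69 over both, adjusted p = 0.999). The age regulators ORE1 and NAP differed by -0.60 ± 0.40 and -0.41 ± 0.27, and the cysteine protease gene SAG12, a classical marker of old leaves, by -0.04 ± 0.42. SAG12 stood at 255, 245, 1647 and 3074 FPKM in Col-0 and 343, 192, 1059 and 4026 FPKM in co-10, high at ZT16 in both genotypes. Of 17 autophagy genes 12 lay below 0, with a median of -0.30, the lowest of any list, and 0 called. The 9 ATG8 genes, which tag the membranes that enclose cell contents, were set apart after their values were seen: all 9 lay below 0, while 5 of the other 8 autophagy genes lay above 0 and 3 below, with a median of 0.02. The ATG8 differences ran from -0.74 ± 0.40 for ATG8H and -0.61 ± 0.29 for ATG8E to -0.23 for ATG8D. ATG8E stood at 142, 98.9, 579 and 318 FPKM in Col-0 and 86.3, 58.2, 244 and 378 FPKM in co-10, lower at ZT4 and overlapping at ZT16.

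Chlorophyll breakdown had 4 of 8 genes on each side of 0, with a median of 0.03; NYE1, which draws magnesium from chlorophyll, differed by 0.52 ± 0.38 and PPH, a pheophytin hydrolase, by -0.43 ± 0.27. Nutrient remobilisation had 11 of 22 on each side, with a median of -0.04. In it the sugar exporter SWEET12 stood at 7.58, 12.5, 182 and 113 FPKM in Col-0 and 5.49, 0.703, 103 and 108 FPKM in co-10, without overlap at either time (-1.06 ± 0.43, adjusted p = 0.999 by limma). The glutamine synthetase gene GLN1;4 differed by -0.89 ± 0.54, with -2.08 at ZT4 and 0.29 at ZT16. It was listed at 0 in both co-10 libraries of ZT4. Of 15 ethylene genes 10 lay above 0, with a median of 0.18; ACS6, an enzyme of ethylene synthesis, differed by 0.61 ± 0.38 and the receptor ERS2 by 0.52 ± 0.25. Of 10 abscission genes 6 lay above 0, with a median of 0.08; the peptide gene IDA, which triggers organ shedding, was near its detection limit and differed by 0.60 ± 0.35, and AGL15, which delays shedding, by -0.60 ± 0.41. The polygalacturonase gene ADPG2, listed at 0 in every co-10 library and at 0 to 2.75 FPKM in Col-0, differed by -0.78 ± 0.39.

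Flowering genes had 12 of 19 above 0, with a median of 0.09. SVP, a repressor of flowering, stood at 1.28, 1.23, 0 and 0.821 FPKM in Col-0 and 4.27, 2.76, 1.52 and 2.44 FPKM in co-10, without overlap (1.05 ± 0.35, adjusted p = 0.999), and SPL4 differed by 0.79 ± 0.51. SNZ, another repressor, stood at 2.49, 6.63, 0 and 0 FPKM in Col-0 and at 0, 0, 0.437 and 0 FPKM in co-10 (-1.05 ± 0.54). The 6 tested CONSTANS-like genes, close relatives of CO, were the most tightly bounded list: all 6 intervals lay within 1 log2 unit, from COL3 at -0.14 ± 0.34 to COL4 at 0.32 ± 0.22. Clock genes were likewise close to 0, with medians of 0.11 for 11 morning-phased and 0.10 for 11 evening-phased genes, and 9 of 11 bounded within 1 log2 unit in each list. Their leading members were RVE8 at 0.52 ± 0.28, PRR9 at 0.35 ± 0.31 and ELF4 at -0.87 ± 0.38, with LKP2 at 0.21 ± 0.36. ELF4, an evening repressor, stood at 6.65, 1.91, 225 and 119 FPKM in Col-0 and 1.36, 0.482, 107 and 141 FPKM in co-10, so that its large time difference was present in both genotypes.

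Abscisic acid and drought genes lay 10 above and 10 below 0, with a median of 0.08, with RAB18 at the top and RD29A at 0.84 ± 0.51. All 10 tested genes of salicylic acid defence lay below 0, with a median of -0.22 and 0 called. The list median was -0.07 at ZT4 and -0.51 at ZT16, and PAD4 was the nearest to 0 over both times, at -0.0054. SARD1, a regulator of salicylic acid synthesis, differed by -0.77 ± 0.59 and the transporter EDS5 by -0.53 ± 0.43. Of 41 photosynthesis genes 31 lay below 0, with a median of -0.22, among them PSAK at -0.77 ± 0.44 and PSAN at -0.69 ± 0.43, both subunits of photosystem I. PSAK differed more between the replicates of a group, with 758 and 279 FPKM in Col-0 at ZT4, than between genotypes. Heat and handling stress genes lay above 0 in 14 of 17, with a median of 0.29, 0.49 at ZT4 and -0.14 at ZT16. HSP90.1 differed by 0.56 ± 0.53 (1.55 at ZT4, -0.43 at ZT16) and ERF104 by 0.48 ± 0.38 (1.11 at ZT4, -0.15 at ZT16). Flavonoid genes had 9 of 13 above 0, with a median of 0.14 and F3'H at 0.53 ± 0.47 and F3H at 0.33 ± 0.42. Petal growth genes were split 5 to 5, with a median of 0.02 and the expansins EXPA3 at -0.55 ± 0.74 and EXPA8 at -0.43 ± 0.74. Cell wall genes had 7 of 12 below 0, with a median of -0.12, XTH4 at -0.59 ± 0.77 and SEN4 at -0.36 ± 0.26. Floral organ identity had 5 of 7 below 0, with a median of -0.10, SEP2 at the bottom and AG, which specifies stamens and carpels, at -0.37 ± 0.54.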

How the data were processed

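Strand-specific mRNA libraries were made from 250 ng of total RNA, per the labels' protocols. FastQC, HISAT2 and the TAIR10 build are named, per the submitters' processing notes; the quantifier, its annotation and its strand setting were not given in the sources used here. The authors deposited FPKM, a unit read from the values, with 1 column per library; 32548 of 32833 loci matched TAIR10.1 and 285 are organelle loci.

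Values were taken as log2(FPKM + 1). Loci at 1 FPKM or more in at least 2 of 8 libraries were fitted by limma 3.58.1 (trended, robust prior; statmod 1.5.0, R 4.3.3): genotype with time as a block for both times, and 4 group means for single times and their interaction. Tests were two-sided. FPKM hold no counts, so no counting interval is given. Scripts were tested on simulated data.

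The comparison, lists and tests were chosen with earlier results of these data known. By the rule, CO was named, then called loci and up to 8 leading non-overlapping loci each way with a mean log2 of at least 1, and in each list called members or the 2 largest differences above the same mean; JAZ8, SNZ and ADPG2, below that mean, ATG8 genes, relatives, neighbours and single-time calls were added after their values were seen. Replicate numbers were not taken to pair libraries (correlations of deviations 0.184 at ZT4 and -0.178 at ZT16).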

Additional observations from a re-analysis of the deposited data

Results flagged for a closer look

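SAG21 had differences of opposite sign at the 2 times. Every co-10 library was above every Col-0 library at ZT4, a difference of 0.93 on the log2 scale that did not pass (adjusted p = 0.904 by limma), and below at ZT16 (-4.43, adjusted p = 0.0191 by limma). The difference between the times was -5.36, and limma's interaction test did not pass (adjusted p = 0.106). MIR2936, inside SAG21 on the same strand, stood at 258 and 293 FPKM in co-10 at ZT16 against 0.377 and 0.395 FPKM in Col-0. Fragments can be assigned to either, so the values of the pair cannot be separated. In seedlings at ZT16 MIR2936 stood at 131 and 187 FPKM in Col-0 and 172 and 103 FPKM in 35S:CO. SAG21 there stood at 58.9 and 15.3 FPKM and at 65.4 and 9.67 FPKM. In 35S:CO petals MIR2936 stood at 0.233 to 3.47 FPKM and SAG21 at 168 to 341 FPKM.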

How the results depend on the processing

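Over both times, the count of 1 called locus was the same without each library in turn. It was 0 with a pseudocount of 0.1 FPKM, 7 (3 higher, 4 lower, none shared with the main count) in a fit of all 12 petal libraries, and, in alternatives chosen after seeing the data, 0 without loci of a longest transcript under 300 bases and 0 without loci that overlap another, both of which leave AT1G64795 out. The 4 calls at ZT4 became 0 with no filter on low values, 2 with quantile normalization, 2 with ribosomal and organelle loci left out, 1 with the replicate block, 2 with a constant prior, 2 with library weights and 0 without short loci, and ran from 0 to 381 without single libraries. The 4 at ZT16 became 1 with a pseudocount of 0.1 FPKM, 2 with no filter, 2 with 1 FPKM in at least 4 libraries, 2 with a constant prior, 2 without short loci and 1 without overlapping loci, and ran from 0 to 4 without single libraries. The count of 0 for the difference between times became 3 with quantile normalization, 4 in the 12-library fit and 1 with a constant prior, and ran from 0 to 88 without single libraries. With the replicate block, the count over both times was 1 as before, and the count at ZT16 rose to 6. Quantile normalization gave 5 at ZT16. The ZT4 count was 5 with a pseudocount of 0.1 FPKM and 3 without overlapping loci. Leaving out each library, the CO difference ran from -0.292 to 0.0183. Of 62 named genes, 8 changed sign in any setting, none of them called: without single libraries COL3 ran from -0.492 to 0.0642, AG from -0.90 to 0.18 (0.12 with library weights), EXPA3 from -1.45 to 0.33, EXPA8 from -1.31 to 0.45, LKP2 from -0.15 to 0.45, THI2.1 from -2.73 to 0.40, F3H from -0.11 to 0.67 and XTH4 from -1.51 to 0.36. Except where the omitted loci show it, the cause was not tested. With 2 replicates per group, small differences were not detectable and larger ones could go uncalled. Sequencing depth is unknown.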
